A study of Drosophila melanogaster with 6 samples.

Results

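The Nimrod genes of Drosophila and drpr, which encodes Draper, encode engulfment receptors and related secreted proteins of fly blood cells. The rows named NimB1, NimB2, NimB3, NimB4, NimB5, NimC1, NimC2, NimC4, eater and drpr were taken from the deposited values, which gave 10 of the 17494 genes listed. The samples were 6 libraries of RNA from macrophages sorted by FACS for mCherry from whole embryos at 29°C, at stage 11 by the sample labels and at stage 11 to early stage 12 by the study's methods. The genotype of the 3 control samples was w; +; srpHemo-Gal4, srpHemo-3xmCherry/+, and the 3 mac>DfosDN samples carried UAS-DfosDN as well, which encodes a version of the bZIP factor Dfos that blocks the normal protein. Both groups therefore carried the macrophage driver srpHemo-Gal4 and the marker, and the controls had no other UAS transgene. The methods give these genotypes for the adult flies in the egg-laying cages and pool embryos over many collections, and the genotype of the single embryos is not given in the sources used here. The comparison asks which genes change when Dfos is blocked in macrophages before and during their entry into the germband. The srpHemo enhancer drives both the transgene and the marker used for the sort, so the sort holds whichever cells of the embryo use it.

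Proteins of the Nimrod family carry repeats of an EGF-like type called NIM repeats. Draper, the fly relative of CED-1 of worms and MEGF10 of mammals, and NimC4, also named Simu, are receptors with which embryonic macrophages and glia take up dying cells. NimC1 and Eater are surface receptors of larval blood cells that bind bacteria, and the NimB proteins have no membrane anchor and are secreted.

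Each deposited value of 1 or more had lost its decimal point. The points were put back from the rule that each value stands for a whole number of reads, and the result is given both as reads and as TPM (transcripts per 1000000, here reads per exon length scaled with TMM factors). Of the 10 members, 7 could be tested. NimB1 was set aside, because 1 of its values could be read in more than 1 way, and NimC2 and eater had too few reads. On the log2(TPM + 1) scale, limma compared the groups for the 7435 genes that passed the filter. A gene was called at an adjusted p under 0.05 by the method of Benjamini and Hochberg. On this scale the change of genes with low TPM is understated. By the study's methods the libraries came from a 3′ end kit, and by the labels from standard Illumina protocols. Reads from the 3′ end do not grow with the length of a transcript, so division by exon length places long genes such as drpr low.

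The samples held between 8352261 and 9771101 restored reads. Reads on kay, which encodes Dfos and cannot be told from those of the transgene, were between 368 and 784 in control and between 866 and 945 in mac>DfosDN macrophages. The log2 fold change of kay was 0.68, which was not called (adjusted p = 0.253 from limma). Of all genes tested, 3.47% were called, and 1.87% were called lower in mac>DfosDN macrophages. An unadjusted p under 0.05 from limma was reached by 18.2% of all genes tested, with 9.16% lower. Of the 11 macrophage markers, 9 had at least 758 reads in every sample, while the other two, Hml and He, which mark later blood cells, had at most 52 reads outside control replicate 3. The fat body markers Lsp2 and Lsp1alpha were at 0 in all samples. Markers of glia, which also use Draper and Simu, had summed levels of 130 to 157 TPM in control and 148 to 171 TPM in mac>DfosDN macrophages, with the defining glial marker repo at 0 to 13 and 0 to 27 reads, and none of the 5 was called by limma or limma-voom, with 2 lower at an unadjusted p under 0.05. The 3 gut markers GATAe, fkh and cad had summed levels of 2.12 to 5.90 TPM in control and 7.82 to 14.9 TPM in mac>DfosDN macrophages, and all 3 were higher at an unadjusted p under 0.05. GATAe was called higher by limma (adjusted p = 0.04) but not by limma-voom (0.0982), and its limma value was 0.135 without control replicate 3. For fkh limma-voom made the call (0.0369) and limma did not (0.0746). Of the tested markers of lamellocytes, neurons, muscle, epidermis, trachea and amnioserosa, none was called by limma, while limma-voom called Ance, of the amnioserosa list, higher. Only 1 of the 3 lamellocyte markers and none of the 3 germ cell markers passed the filter on low reads. Of the 4 crystal cell markers, 3 were tested, and they did not move together. On the log2 scale lz and peb differed by 0.07 and 0.61, and neither was called by limma or limma-voom. Only PPO1, a prophenoloxidase gene, was lower, as the tested members were. It had 11126, 13590 and 4141 reads in the control samples and 3437, 4187 and 3110 in the mac>DfosDN samples, so that the groups overlapped. Its log2 fold change of -1.19 was called by limma-voom (adjusted p = 0.0241) and not by limma (0.0843). Left out in turn, control replicate 3 gave 0.00507 and the other samples 0.119 to 0.212 from limma. The part of these other cell types in the values below was not tested. Control replicate 3 stood apart. It held 23 genes with at least 30 reads and at least 5 times the reads of each other sample, against 3 to 9 such genes in the other samples. Nothing in the labels names a batch. In bulk RNA of this kind, fewer cells of a type and less RNA per cell cannot be told apart, and the p-values measure the spread between these samples.

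The members covered a wide range of levels, with NimC4 far above the rest. In control macrophages NimC4 had 15517 ± 2282 TPM (SD, n = 3) and made up 97.0% ± 0.238 (SD, n = 3) of the summed TPM of the 10 members. By TPM, NimB3 followed at 290.5 ± 20.7 TPM (SD, n = 3) and NimB4 at 95.8 ± 35.5 TPM (SD, n = 3). On that scale the ranges of these leading genes did not overlap with each other or with drpr in either group. The levels of drpr, at 37.1 ± 14.3 TPM (SD, n = 3), and NimB2, at 31.1 ± 6.45 TPM (SD, n = 3), overlapped in control, and those of NimB1 and NimB5 also did. Each drpr value lay below each NimB2 value in mac>DfosDN macrophages. In reads, without division by length, the order was another. There drpr came second in control, at 146 ± 52.8 reads per 1000000 restored reads (SD, n = 3), beside NimB4 at 118 ± 41.1 and NimB3 at 114 ± 12.4, with overlapping ranges, and in both groups every drpr value lay above every NimB2 value. The receptors of larval blood cells came last in both groups. NimC1, eater and NimC2 were each under 4 TPM in every sample, and their ranges overlapped in both groups.

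**Figure D1:**
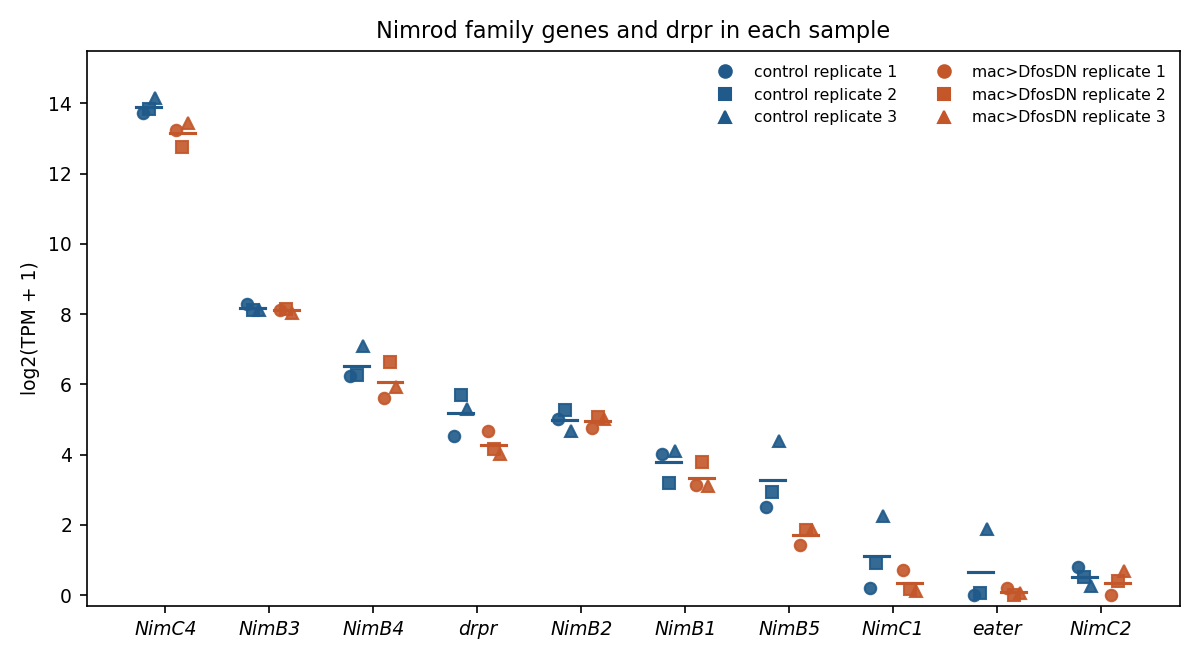
Level of each member in the 6 samples, as log2(TPM + 1), ordered by the control mean. Circles, squares and triangles are replicates 1, 2 and 3 of control (blue) and mac>DfosDN (orange), and the bars are group means. NimC4 lies above all others, and control replicate 3 is the highest sample for 6 of the 10 genes. NimB1 is drawn at its likeliest reads, although it was set aside.

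Of the 7 members tested, 1 was called by limma, NimC4, and it was lower in mac>DfosDN macrophages. Over all genes tested, 1.87% were called lower and 3.47% in either direction. No member was called higher. All 7 log2 fold changes were below 0, with a median of -0.76 beside a median of 0.01 over all genes tested, of which 49.3% were below 0. These figures describe the members that passed the filter. Without adjustment, 3 members, NimC4, NimB5 and drpr, had p under 0.05 and were lower, beside 9.16% of all genes tested that were lower at that level and 18.2% that reached it in either direction. Limma-voom on the restored reads called 1 member, again NimC4, beside 2.52% of all genes tested that it called lower, 1.60% that it called higher and 4.12% in either direction. The groups did not overlap for 2 members, NimC4 and NimB5, with mac>DfosDN below control in both. Over all genes tested the groups did not overlap, with mac>DfosDN lower, in 11.6%, and with mac>DfosDN higher in 11.9%.

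**Figure D2:**
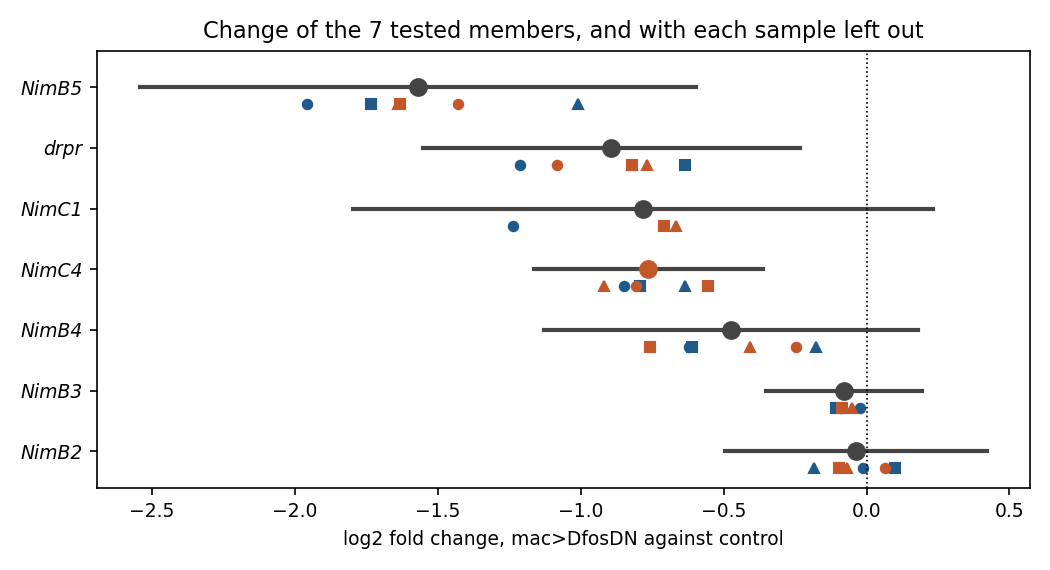
Log2 fold change of the 7 tested members, mac>DfosDN against control on the log2(TPM + 1) scale. Large points are the values from all 6 samples (orange where the adjusted p was under 0.05) with their unadjusted 95% intervals, and small symbols give the value with 1 sample left out (shape for the replicate, blue for control, orange for mac>DfosDN). NimC4 is the 1 orange point, at -0.76, and its values with a sample left out run from -0.92 to -0.56.

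NimC4 (FBgn0260011) encodes Simu, a transmembrane receptor that binds phosphatidylserine on dying cells and acts before Draper in their clearance. In the BDGP6.54 annotation it is a gene of 1 exon on the plus strand of chromosome 2L, from 14047582 to 14048863, within the span of nAChRalpha5 and without overlap with its exons. The control samples had 143341, 151908 and 163678 reads, and the mac>DfosDN samples 94466, 58746 and 111011. Each mac>DfosDN sample lay below each control sample, and mac>DfosDN replicate 2 was the lowest. NimC4 took 1.66% ± 0.204 (SD, n = 3) of all restored reads in control and 1.004% ± 0.274 (SD, n = 3) in mac>DfosDN macrophages. Among the restored genes its rank by TPM was between 4 and 5 in the control samples and 10, 13 and 39 in the mac>DfosDN samples.

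As TPM, NimC4 had 13685, 14793 and 18073 in the control samples and 9643, 6901 and 11220 in the mac>DfosDN samples. The means were 15517 ± 2282 and 9255 ± 2185 TPM (SD, n = 3 each), a ratio of 0.596. This is a log2 fold change of -0.76 (standard error 0.18), with an unadjusted 95% interval from -1.17 to -0.36 and an adjusted p of 0.0478 from limma. A 2-sided exact permutation test on the 3 samples of each group gave p = 0.1, the smallest p this design allows. None of its values was placed above the smallest power of 10, so the size of the change hardly moved with the rule for the decimal points, but the call did. The adjusted p lay between 0.00677 and 0.363 over 10 other settings and was under 0.05 in 4 of them, and it was 0.0715 when the decimal points were placed without regard to the groups. It was 0.171 without control replicate 3, 0.125 without mac>DfosDN replicate 2, 0.0986 without control replicate 2 and 0.0826 without mac>DfosDN replicate 1.

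The gene drpr (FBgn0027594) encodes Draper, the receptor that signals for uptake through an ITAM motif. It lies on the minus strand of chromosome 3L, from 1715595 to 1731107, with 6 annotated transcripts and 4757 exon bases, the longest exon length of the members. Its exons share 115 bases with Oseg4 on the same strand. The control samples had 865, 1934 and 1287 reads and the mac>DfosDN samples 884, 532 and 564. The groups overlapped in 1 place, since control replicate 1 was just below mac>DfosDN replicate 1 in reads and in TPM. The control samples varied by more than the mac>DfosDN samples, with 22.3, 50.8 and 38.3 TPM against 24.3, 16.8 and 15.4 TPM. The means were 37.1 ± 14.3 and 18.8 ± 4.80 TPM (SD, n = 3 each). For drpr the log2 fold change was -0.89 (standard error 0.30), with an unadjusted 95% interval from -1.55 to -0.23, and it was not called (adjusted p = 0.14 from limma, 0.056 from limma-voom). Without control replicate 1 it would have been called, at -1.21 and an adjusted p of 0.034 from limma, while with any other sample left out the adjusted p lay between 0.113 and 0.354 and the log2 fold change between -1.08 and -0.63. The 2-sided exact permutation test gave p = 0.2.

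Among the secreted NimB proteins, NimB5 had the largest log2 fold change of the 7 tested members, on the log2(TPM + 1) scale, and was not called. As a plain ratio of mean TPM, its 0.220 was less extreme than the 0.179 of NimC1 and the 0.0722 of eater, whose control reads came mostly from control replicate 3. NimB5 (FBgn0028936, chromosome 2L, plus strand, 13970177 to 13972173) is known in larvae as a product of the fat body that limits the number and adhesion of blood cells. The control samples had 53, 75 and 196 reads and the mac>DfosDN samples 18, 24 and 28. Every mac>DfosDN value was below every control value, and control replicate 3 stood well above the other control samples. The levels were 4.65, 6.71 and 19.9 TPM in the control samples and 1.69, 2.59 and 2.60 TPM in the mac>DfosDN samples. NimB5 had a log2 fold change of -1.57 (standard error 0.44), with an unadjusted 95% interval from -2.54 to -0.60 and an adjusted p of 0.0813 from limma. Without control replicate 3 the value was -1.01 with an adjusted p of 0.20, and without control replicate 1 it was -1.96 with an adjusted p of 0.0335, which would have been a call.

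The NimB5 values have 2 further limits. The control reads of 53 and 75 could also be 530 and 750, with posterior probabilities of 0.948 and 0.967 for the smaller numbers. The 18 reads of mac>DfosDN replicate 1 could also be 180, with a posterior of 0.996 for 18. Under the model without the groups that posterior was 0.816, below the limit of 0.9, and NimB5 was set aside. NimB5 also shares 78 exon bases at its 3′ end with the 3′ end of He on the opposite strand. Whether the counting used strand is not given in the sources used here, so how reads in these shared bases were counted is not known. He encodes Hemese, a surface protein of larval blood cells, and was itself set aside. Its likeliest reads were 1, 15 and 176 for the control samples and 3, 5 and 0 for the others, so control replicate 3 was the highest here too.

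NimB4 (FBgn0028542, chromosome 2L, minus strand, 13968280 to 13969976) encodes a secreted protein that binds dying cells and aids their clearance. The control samples had 901, 900 and 1428 reads and the mac>DfosDN samples 540, 976 and 685. Control replicate 3 was again the highest sample, and mac>DfosDN replicate 2 lay above control replicates 1 and 2. The reads of 900 and 540 were placed above their smallest possible values of 90 and 54, with posteriors of 0.997 each. The levels were 95.8 ± 35.5 and 69.1 ± 27.0 TPM (SD, n = 3 each). NimB4 had a log2 fold change of -0.47 (standard error 0.29), with an interval from -1.13 to 0.18, and was not called (adjusted p = 0.441 from limma). Its size rested on single samples, as it was -0.18 without control replicate 3, -0.25 without mac>DfosDN replicate 1 and -0.76 without mac>DfosDN replicate 2.

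NimB3 and NimB2 had the smallest differences. NimB3 (FBgn0054003, chromosome 2L, minus strand, 13967464 to 13967985) is the shortest member, with 466 exon bases. The control samples had 1197, 1040 and 917 reads and the mac>DfosDN samples 994, 871 and 947. The 6 levels lay between 263.3 and 314.4 TPM, the smallest ratio of highest to lowest among the members, and the groups overlapped. Its log2 fold change came to -0.08 (standard error 0.12), with an interval from -0.35 to 0.19 and an adjusted p of 0.787 from limma. The reads of 1040 in control replicate 2 were placed above their smallest value of 104, with a posterior of 0.999, and at the smallest values throughout the log2 fold change of NimB3 was 1.01 (adjusted p = 0.68 from limma).

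NimB2 (FBgn0028543) lies on the same strand of chromosome 2L, from 13965012 to 13967018. Reads numbered 371, 428 and 247 in the control samples and 283, 314 and 346 in the mac>DfosDN samples. Here control replicate 3 was the lowest of the 6 samples, unlike in NimB4 and NimB5. The mac>DfosDN values lay within the range of the control values. For NimB2 the log2 fold change was -0.04 (standard error 0.21), with an interval from -0.50 to 0.42 and an adjusted p of 0.95 from limma. Its sign changed when control replicate 2 or mac>DfosDN replicate 1 was left out, to 0.10 and 0.06.

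NimB1 (FBgn0027929, chromosome 2L, plus strand, 13963507 to 13965088) shares 77 exon bases with NimB2, its neighbour on the opposite strand, again at the 3′ ends of both. Its likeliest reads were 160, 85 and 149 for the control samples and 77, 111 and 75 for the mac>DfosDN samples. The value of control replicate 1 could also be 16 reads, and the posterior of 160 was 0.894, under the limit of 0.9, so NimB1 was not tested. With the limit lifted the log2 fold change was -0.43 (adjusted p = 0.543 from limma), and with the smaller number of reads in place it was 0.46 (adjusted p = 0.809). The direction of NimB1 therefore depends on that value. The groups overlapped at the likeliest reads.

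The receptors known from larval blood cells were near the limit of detection. NimC1 (FBgn0259896, chromosome 2L, minus strand, 13973158 to 13976769), the P1 antigen of larval plasmatocytes, had 4, 23 and 87 reads in the control samples and 16, 3 and 2 in the mac>DfosDN samples. Control replicate 3 held most of the control reads, and the groups overlapped. Its log2 fold change of -0.78 had a standard error of 0.46, an interval from -1.80 to 0.23 and an adjusted p of 0.408 from limma, and it was -1.24 without control replicate 1. NimC1 no longer passed the filter on low reads without control replicate 2, control replicate 3 or mac>DfosDN replicate 1.

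For eater (FBgn0243514, chromosome 3R, minus strand, 27095867 to 27099679), which encodes a receptor for bacteria that also holds larval blood cells in place, the control samples had 0, 1 and 63 reads and the mac>DfosDN samples 4, 0 and 1. Control replicate 3 thus held 63 of the 64 control reads, with a posterior of 0.970 against 630 reads. The samples at 0 allow up to 3 reads each, 0.111 TPM in control replicate 1 and 0.137 TPM in mac>DfosDN replicate 2, and this covers counting error only. NimC2 (FBgn0028939, chromosome 2L, plus strand, 13980126 to 13983269) had 17, 10 and 4 reads in the control samples and 0, 6 and 13 in the mac>DfosDN samples. Its 0 in mac>DfosDN replicate 1 allows up to 0.139 TPM. The NimC2 groups overlapped, and control replicate 3 was the lowest control sample. NimC2 shares 527 exon bases at its 3′ end with rk on the opposite strand. Neither eater nor NimC2 passed the filter, and a difference was not detectable at this depth.

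Control replicate 3 was the highest sample for 6 members, NimB1, NimB4, NimB5, NimC1, NimC4 and eater. Against the mean of control replicates 1 and 2, its level was 1.27 times as high for NimC4 and 1.82 times for NimB4. It was 3.50 times for NimB5, 7.33 times for NimC1 and, at the likeliest reads, 1.40 times for NimB1. For drpr and NimB3 the level was 1.05 and 0.940 times, for NimB2 0.708 times and for NimC2, with few reads, 0.340 times. The same sample was high in Hml, which encodes Hemolectin, a clotting protein of larval blood cells, with 18, 52 and 878 reads in the control samples and 5, 23 and 19 in the mac>DfosDN samples. The summed level of the 11 macrophage markers was 1655, 1822 and 2499 TPM in the control samples and between 1454 and 1920 TPM in the mac>DfosDN samples. Of the 11 markers, 10 could be tested and none was called by limma or limma-voom, with 3 lower and 2 higher at an unadjusted p under 0.05. That level was reached by 18.2% of all genes tested in either direction. Control replicate 3 was the lowest control sample for the crystal cell marker PPO1, at 251 TPM against 582 and 726 TPM. The likeliest reads of PPO2, another prophenoloxidase gene, were also lowest there, but PPO2 was set aside with a posterior of 0.547 for its least certain value, so its levels are not given. The part of these differences between samples in the values of the members was not tested beyond leaving out each sample.

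**Figure D3:**
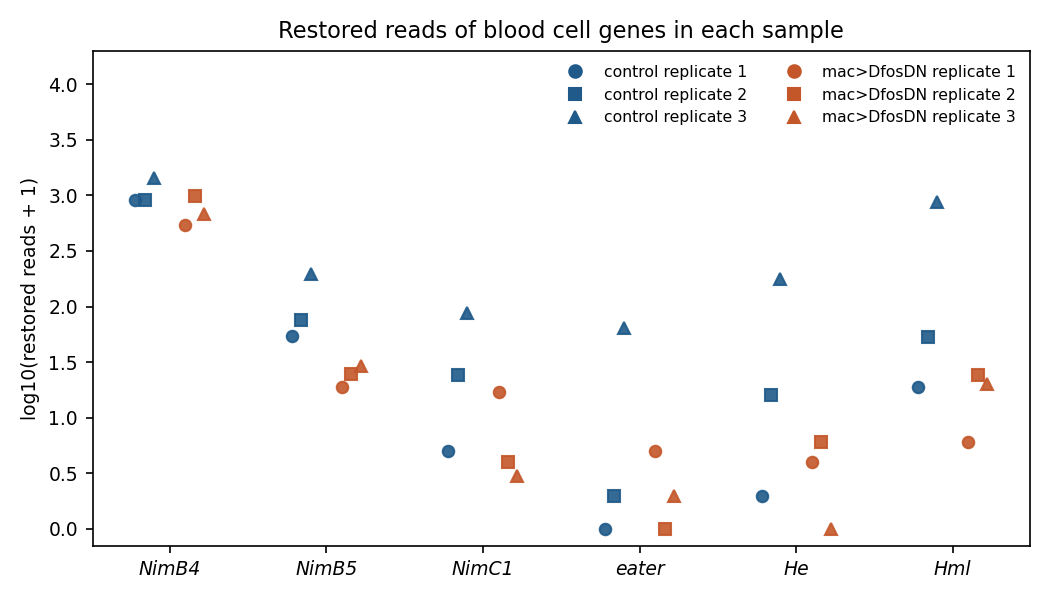
Restored reads of 4 members (NimB4, NimB5, NimC1, eater) and of He and Hml in the 6 samples, as log10(reads + 1). Symbols are as in the plot of levels by sample. The 4 members were drawn because control replicate 3 was their highest sample, as it was for 6 of the 10 members. For NimB2, not drawn, it was the lowest sample. Control replicate 3, the blue triangle, is thus the highest sample for each of the 6 genes. It had 63 eater reads against at most 4 in any other sample and 878 Hml reads against at most 52. He was set aside and is drawn at its likeliest reads.

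Of the members, 8 lie on chromosome 2L, and 7 of these, from NimB1 to NimC2, fill 19.8 kb. NimC4 lies 64.3 kb further on. The levels within the cluster did not follow position, as NimC1 and NimC2 lie beside the NimB genes and had under 4 TPM, while NimC4 at the far end was the highest. The Nimrod genes NimA and NimC3, which are not members, lie in the same region. NimA had at most 2 reads in any sample. The control samples had 355, 317 and 314 reads on NimC3, and the mac>DfosDN samples 445, 318 and 514, and on the TPM scale no control sample reached any mac>DfosDN sample. At 0.42 its log2 fold change (standard error 0.17) was opposite in sign to those of the tested members, and it was not called (adjusted p = 0.225 from limma). NimC3 overlaps an antisense RNA over 814 of its 852 exon bases. Of the 12 other genes annotated between NimA and NimC4, 4 passed the filter, and none was called by limma or limma-voom, with 3 at an unadjusted p under 0.05, a level that 18.2% of all genes tested reached. Their log2 fold changes ran from -1.21 to 0.84 with a median of 0.18.

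**Figure D4:**
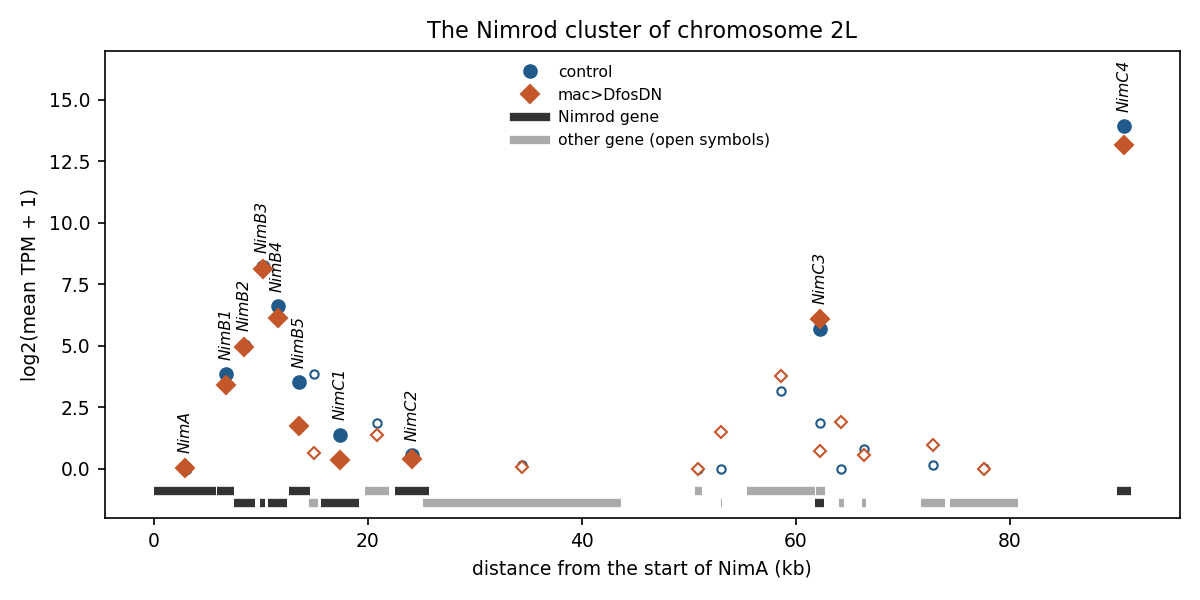
Mean level of the genes of the Nimrod cluster against their distance from the start of NimA in kb, as log2(mean TPM + 1) for control (blue circles) and mac>DfosDN (orange diamonds). Filled symbols and dark bars are Nimrod genes, open symbols and grey bars the other genes, with the plus strand in the upper row of bars. NimC4, at the right, is the highest of the cluster in both groups. NimB1 and He are drawn at their likeliest reads.

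Among the ligands and other receptors of engulfment, 14 genes were listed and 13 tested, and none was called by limma. At an unadjusted p under 0.05, 3 were lower and 2 higher, a level that 18.2% of all genes tested reached in either direction. By limma-voom 2 were called lower, Dscam1 and Tep4, and none higher, beside 2.52% lower and 1.60% higher over all genes tested. The median log2 fold change of the list was -0.27, beside 0.01 over all genes tested. Pretaporter, a Draper ligand encoded by prtp, had 434 ± 70.5 TPM in control and 293 ± 8.04 TPM (SD, n = 3 each) in mac>DfosDN macrophages, and the groups did not overlap. On the log2 scale prtp differed by -0.55 (standard error 0.14), which was not called (adjusted p = 0.0652 from limma). With 1 sample left out the adjusted p was 0.0286 without control replicate 1 and between 0.111 and 0.267 otherwise, and at the smallest powers of 10 the log2 fold change of prtp turned to 1.54 (adjusted p = 0.743). Calr, which encodes Calreticulin, had -0.27 (adjusted p = 0.225). The opsonin-like Tep4 had -0.68 (adjusted p = 0.077), while Sr-CI, a scavenger receptor for bacteria, had 0.44 (adjusted p = 0.115). Croquemort, the CD36-like receptor encoded by crq, had 294 ± 39.5 and 251 ± 15.3 TPM (SD, n = 3 each) with overlapping groups.

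Of the 11 genes that act downstream of Draper and in the Rac pathway of uptake, all 11 were tested and none was called by limma or limma-voom, also with 0 at an unadjusted p under 0.05. Their median log2 fold change was -0.22. The adaptor gene ced-6 had -0.13 (standard error 0.21), and Shark, which encodes the kinase that binds the Draper ITAM, had -0.76 (standard error 0.37, adjusted p = 0.306 from limma). The Shark reads were 270, 426 and 293 in the control samples and 348, 101 and 136 in the mac>DfosDN samples, so that the groups overlapped through mac>DfosDN replicate 1, as in drpr.

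Of the 11 genes of phagosome calcium and maturation, 9 were tested and 1 was called lower by limma, beside 1.87% of all genes tested. Rab7, the GTPase of late endosomes and maturing phagosomes, was called lower, from 462 ± 102 to 258 ± 56.0 TPM (SD, n = 3 each). The log2 fold change of -0.84 (standard error 0.20) had an adjusted p of 0.0468 from limma, which was under 0.05 in 2 of 10 other settings. With 1 sample left out it was between 0.037 and 0.142, and it was under 0.05 only without control replicate 1 or mac>DfosDN replicate 3. The other 8 were not called, and the median of the list was -0.07. Rab5, the GTPase of early endosomes, had 0.47 (adjusted p = 0.123) and Rab14 -0.55 (adjusted p = 0.113).

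Among the 5 genes of Srp and its partners, 2 were called higher by limma, beside 119 of all 7435 genes tested. These were gcm and gcm2, which encode the glial cells missing factors that also act in early blood cells. Their log2 fold changes were 0.92 (standard error 0.17, adjusted p = 0.0164 from limma) and 1.29 (standard error 0.22, adjusted p = 0.0107), each under 0.05 in 9 of 10 other settings. For gcm the adjusted p was 0.0744 without control replicate 3 and 0.0639 without mac>DfosDN replicate 2. The other 3 genes, srp, ush and zfh1, were not called. Srp is the GATA factor of blood cells, and srp had -0.08 (standard error 0.23).

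The genes whose levels over the 6 samples were most like those of NimB5, the tested member with the largest fold change, were Rel, bbc and Idgf2, with Pearson's r of 0.999, 0.998 and 0.996 on log2(TPM + 1) among 3781 genes with a mean of at least 10 TPM. Rel encodes the NF-kappaB factor Relish and Idgf2 a secreted chitinase-like protein. All 3 shared with NimB5 that control replicate 3 was the highest sample and that every mac>DfosDN sample lay below every control sample. This follows largely from choosing them by their correlation with NimB5 over the same 6 samples. For Rel the reads were 302, 380 and 774 in the control samples and 144, 156 and 197 in the mac>DfosDN samples. None of the 3 was called by limma, with adjusted p of 0.089 for Rel, 0.25 for bbc and 0.0868 for Idgf2. Limma-voom called Rel (adjusted p = 0.0405) and Idgf2 (0.0333), and not bbc (0.216).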

How the data were processed

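The authors aligned reads of 50 bases to BDGP6 with STAR 2.5.1b, counted them per gene with HTSeq 0.5.4p3, and used TMM from edgeR, voom and limma. The columns they deposited hold TPM-scale values in place of counts, intact below 1 and without a decimal point from 1 upward. A value equals reads times a constant of the sample over the union exon length, for which the Ensembl BDGP6.54 annotation, later than the authors', was used. Of the intact values, 97.9% to 98.4% per sample gave whole reads within 1e-05. The power of 10 of each other value was chosen by its posterior under a negative binomial model with a mean per group, and genes with a value under 0.9 were set aside. This model and limit were taken over from an earlier processing of these data, which adopted them after a stricter rule had kept few genes of interest. Of 17494 genes, 11592 were restored and 453 were set aside. The rest comprised 5335 at 0 throughout, 89 without a length and 25 without whole reads. In the restored genes, 4.83% of the values without a point were placed above their smallest power. Restored TPM, with the genes set aside, summed to between 982089 and 990686.

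For 122 genes the values themselves gave the length, within 25% of that annotated. That search was rewritten once, after the first version gave sums far above those of TPM. The members all use annotated lengths. On simulated data with known reads, the model with the groups gave more false calls than the true reads or the model without the groups, so calls near the threshold may be too many.

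Genes needed 10 reads at the median library size in 3 samples and 15 in total. TMM factors (30% of log ratios and 5% of intensities trimmed) were applied, and log2(TPM + 1) was tested with limma 3.58.1 and an intensity trend in R 4.3.3. Permutation tests used SciPy 1.17.1 in Python 3.11.15. Alternatives were other restorations, factors, pseudocounts, filters, limma-voom on restored reads, the study's fold threshold, a replicate block and each sample left out. Genes named were the 10 members, their cluster neighbours, lists of engulfment genes and markers, and the 3 genes most like the tested member with the largest log2 fold change. The listed names uta, Arl8 and hnt were matched to rtp, Gie and peb by synonyms in RefSeq, ced-6 by its spelling, and scb had no length. The members and lists were chosen with earlier results of these data known.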

Additional observations from a re-analysis of the deposited data

How the results depend on the processing

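The 258 genes called became 117 with the decimal points placed without the groups, 18 at the smallest powers, 95 with no filter on low reads and 107 when a log2 fold change of 1.5 was also required, and lay between 109 and 253 with each sample left out. The single member called, NimC4, became 0 members with the points placed without the groups, at the smallest powers or with no posterior limit, without TMM factors, with a pseudocount of 0.1, with no filter and with the fold threshold of 1.5, and between 0 and 3 members with each sample left out. The 3 were NimC4, drpr and NimB5, without control replicate 1, and 0 were called without control replicate 2 or 3 or mac>DfosDN replicate 1 or 2. NimC4 stayed called with median-of-ratios factors, a pseudocount of 5 and limma-voom. Its log2 fold change kept its sign in every setting run, between -0.92 and -0.56. NimB3 turned to 1.01 at the smallest powers, and NimB2 lay between -0.18 and 0.10 with each sample left out. The other tested members kept their signs wherever they could be fitted. The replicate block gave 200 genes and 1 member, NimC4 (adjusted p = 0.0463 from limma). Same-numbered samples correlated at -0.05, 0.03 and 0.02 in their deviations from the group means, which shows no pairing by number. Such correlations cannot exclude a shared collection or sort. Why the counts moved was not tested. Depth limits NimC1, NimC2 and eater, with under 100 reads in every sample, and also NimB5, with under 100 in 5 of 6 samples, and NimB1, with under 100 in 3.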
